A study of Mus musculus with 12 samples.

Results

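The cornified envelope genes described here are 45 of the 57180 genes in a table of expression in mouse liver and skin. They were chosen by symbol alone: every gene named Lce or Sprr with a number, plus Flg, Flg2, Ivl, Kprp, Cdsn, Cst6 and Crct1. That gives 14 Lce1, 6 Lce3, 1 Lce6, 2 Sprr1, 13 Sprr2, 1 Sprr3 and 1 Sprr4 genes and the 7 named singly. The study treated mice with carbon tetrachloride (CCl4), which is toxic to hepatocytes, or with vehicle, and by its title concerns a route from liver to skin, midkine and alloknesis, which is itch evoked by touch. There were 3 libraries in each of 4 groups. The liver groups were CCl4-treated and vehicle-treated C57 mice, sequenced as bulk RNA. The sample labels call this material liver and the design text calls it hepatocytes. The skin groups were CX3CR1+ cells of the dorsal skin of CCl4-treated and vehicle-treated Cx3cr1-creER:Ai9 mice, profiled by smart-seq, which amplifies whole transcripts from little RNA. In those mice the Cx3cr1 gene, a marker of monocytes, macrophages and related cells, drives an inducible Cre, and Ai9 is a fluorescent reporter that Cre switches on; both skin groups carry both alleles. The sources used here do not give dose, time after treatment, sex, age or the gate for the skin cells. Replicate numbers here are those of the sample titles. The deposited library names count otherwise: liver and skin CCl4 replicate 3 bear number 4, and skin vehicle replicates 2 and 3 bear numbers 4 and 5. The design text speaks of biological replicates, and no label ties a replicate to an animal.

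Keratinocytes that reach the surface of the epidermis replace their plasma membrane support with the cornified envelope, a shell of proteins that transglutaminases cross-link to one another and that lipids coat on the outside. Involucrin (Ivl) is laid down early as a scaffold. Small proline-rich proteins (Sprr) bridge other envelope proteins, and late cornified envelope proteins (Lce) are added in the outermost layers. Filaggrin (Flg) bundles keratin filaments, corneodesmosin (Cdsn) holds cornified cells together, and cystatin E/M (Cst6) inhibits cysteine proteases that process the barrier. Most of these genes lie side by side in 1 cluster, the epidermal differentiation complex. Sprr1a is also known as a gene that injured cells outside the epidermis, such as neurons and heart muscle cells, switch on.

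The position of the members was not used to choose them. In the gene table, 43 of the 45 were on mouse chromosome 3, with Cdsn on chromosome 17 and Cst6 on chromosome 19. The RefSeq gene order of GRCm38.p6 places the Sprr2 genes first, then Sprr1b, Sprr3, Sprr1a, Sprr4 and Ivl, then Lce6a, Kprp and all Lce1 genes but Lce1m, then Lce3a to Lce3f followed directly by Crct1 and Lce1m, and Flg2 and Flg at the end. The 250 bases before each RefSeq gene start were available for 38 members. They were searched for TGANTCA, a pattern that includes TGAGTCA and TGACTCA, the usual site of AP-1. AP-1 is a dimer of Fos and Jun proteins that is known to drive keratinocyte differentiation genes. The pattern reads the same on both strands. It occurred in 12 of the 38 members (31.6%) and in 6.75% of all 32851 RefSeq promoter entries of that length. Both Sprr1 genes held it, as did 7 of 10 Sprr2 genes, Ivl, Flg and Flg2, and none of 13 Lce1 or 6 Lce3 entries did. In Sprr1b, Flg and Flg2 the match read TGAATCA, which is outside the usual AP-1 site. The matches in the other members read TGAGTCA or TGACTCA. At least 2 copies were found in Sprr1a and Sprr2k among members, and in 0.338% of all entries. Such a match is a description of the letters in the window and not evidence of binding.

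The 6 stretches printed next belong to the genes on which the results turn: Sprr1a, the member called in liver, its relative Sprr1b, Ivl, and the skin genes Sprr2a2, Sprr2h and Lce3c, of which the last pair were highest in the same libraries and Sprr2a2 was not. They are from RefSeq, build GRCm38.p6, written 5′ to 3′ on the strand of the gene and ending at the base before the gene start, with TGANTCA in capitals. Sprr1a is at chr3:92485882-92486131 on the minus strand, Sprr1b at chr3:92438780-92439029 on the minus strand and Ivl at chr3:92573736-92573985 on the minus strand. Sprr2a2 is at chr3:92250397-92250646 on the plus strand, Sprr2h at chr3:92385435-92385684 on the plus strand and Lce3c at chr3:92944236-92944485 on the plus strand.
Sprr1a: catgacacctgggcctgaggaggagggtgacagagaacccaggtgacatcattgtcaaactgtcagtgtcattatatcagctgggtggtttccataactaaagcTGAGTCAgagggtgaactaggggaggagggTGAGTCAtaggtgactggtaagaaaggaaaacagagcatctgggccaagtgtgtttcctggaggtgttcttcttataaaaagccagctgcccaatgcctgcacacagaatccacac
Sprr1b: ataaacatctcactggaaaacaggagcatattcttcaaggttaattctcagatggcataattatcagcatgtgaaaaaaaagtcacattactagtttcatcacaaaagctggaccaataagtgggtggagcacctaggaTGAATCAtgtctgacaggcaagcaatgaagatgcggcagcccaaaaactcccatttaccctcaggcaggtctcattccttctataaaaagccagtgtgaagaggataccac
Ivl: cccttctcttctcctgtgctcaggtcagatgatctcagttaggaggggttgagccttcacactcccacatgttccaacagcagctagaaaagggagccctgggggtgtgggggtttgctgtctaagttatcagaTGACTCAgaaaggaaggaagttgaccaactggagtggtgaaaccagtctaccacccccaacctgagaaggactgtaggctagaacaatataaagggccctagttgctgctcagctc
Sprr2a2: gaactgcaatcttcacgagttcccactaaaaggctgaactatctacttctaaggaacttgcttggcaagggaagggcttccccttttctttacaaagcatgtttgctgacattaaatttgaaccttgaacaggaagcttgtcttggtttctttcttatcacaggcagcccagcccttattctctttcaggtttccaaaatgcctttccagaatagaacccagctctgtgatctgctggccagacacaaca
Sprr2h: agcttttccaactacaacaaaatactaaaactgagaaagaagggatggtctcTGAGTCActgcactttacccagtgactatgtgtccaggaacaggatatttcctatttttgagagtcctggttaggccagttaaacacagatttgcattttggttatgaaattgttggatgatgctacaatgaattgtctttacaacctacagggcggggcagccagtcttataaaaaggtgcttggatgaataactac
Lce3c: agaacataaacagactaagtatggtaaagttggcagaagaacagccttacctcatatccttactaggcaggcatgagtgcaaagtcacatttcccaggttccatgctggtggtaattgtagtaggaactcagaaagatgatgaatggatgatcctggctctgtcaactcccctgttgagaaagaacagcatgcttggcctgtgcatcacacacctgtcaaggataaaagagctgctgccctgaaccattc
The 2 copies in Sprr1a start 146 and 116 bases before the gene start, and the single copy in Ivl also starts 116 bases before it. That of Sprr1b starts 111 bases and that of Sprr2h 198 bases before the start. In 7 Sprr2 genes a copy starts 193 to 198 bases before the start, whereas Sprr2a2 and Lce3c hold none in this window.

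Values are TPM, a transcript level scaled for transcript length and for the library's total. It keeps no sequencing depth, so the depth of each library is unknown. Of the 45 members, 38 reached 5 TPM in at least 1 library. The other 7 (Flg2, Sprr2a1, Sprr2b, Sprr2c-ps, Sprr2j-ps, Sprr2k and Sprr3) stayed under 5 TPM in all 12 libraries, and Sprr3 and Sprr2c-ps were listed at 0 in all of them. In skin 43 members were above 0 in at least 1 library, and in liver 13 were. Changes are CCl4 minus vehicle in log2(TPM + 1), with the standard error, tested with limma in each tissue over genes with at least 1 TPM in at least 3 of 6 libraries. A gene was called where its p, adjusted by Benjamini-Hochberg over all genes tested in that tissue, was under 0.05.

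In liver, Sprr1a went from near 0 to one of the more abundant transcripts with CCl4, nearly alone among the envelope genes. Sprr1a (ENSMUSG00000050359), which encodes a cross-linked bridging protein of the envelope, was at 0.07, 0 and 0 TPM in vehicle replicates 1 to 3 and at 151, 84.2 and 91.8 TPM in CCl4 replicates 1 to 3. The means were 0.0233 ± 0.0404 and 109 ± 36.4 TPM (SD, n = 3 each), and the groups lay far apart. The change was 6.70 ± 0.26 on the log2 scale (limma, adjusted p = 6.42e-08, 10385 genes tested). Sprr1a ranked 188, 381 and 517 from the highest among the 19933, 20757 and 19473 genes above 0 in CCl4 replicates 1, 2 and 3. Because vehicle is near 0, the size of the change was set largely by the pseudocount: it was 9.79 with 0.1 and 4.46 with 5, called in both. It stayed between 6.44 and 6.86 when any 1 liver library was left out.

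Sprr1a was the only member that could be tested in liver, and it was called higher, in a tissue where limma called 10.3% of genes tested higher and 51.1% lower. It passed the expression filter only through its CCl4 libraries, as any member near 0 with vehicle would have to, so that 1 of 1 was called is read as no result about the members. That split depended on scaling: 1073 genes were called higher and 5304 lower on the deposited values, against 2385 and 2050 after median-ratio scaling, 2755 and 1692 after rescaling without mitochondrially encoded genes, and 1826 and 2507 after quantile normalization. The median change over all liver genes tested was -0.59 as deposited and 0.05, 0.10 and -0.12 under these scalings. Sprr1a's change was 7.11, 7.78 and 7.30 under them.

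The other 44 members were all listed at 0 in the 3 liver vehicle libraries, and 32 of the 45 were at 0 in all 6 liver libraries. Sprr1b, the closest relative of Sprr1a, was at 1.49, 0.46 and 0.79 TPM in the CCl4 libraries. Sprr2a2, one of the bridging proteins of the Sprr2 family, was at 6.46, 2.11 and 0.22 TPM, and Ivl was at 0.15, 0.04 and 0.06 TPM. These 3 genes and Sprr1a were higher in every CCl4 library than in every vehicle library, which is 4 of 45 members against 6.59% of all 57180 genes. Sprr1b, Sprr2a2 and Ivl were above 0 in all CCl4 libraries and at 0 in all vehicle libraries, as 1.39% of all genes were. Sprr1b and Sprr2a2 missed the expression filter, and Ivl lay far below it. The other 9 members seen in liver (Cst6, Cdsn, Lce1d, Lce1f, Lce1g, Lce6a, Sprr2a3, Sprr2b and Sprr2g) were at or below 0.22 TPM. No Lce3 gene was above 0 there. The summed TPM of all members was 0.07, 0 and 0 in vehicle and 159, 87.3 and 92.9 in CCl4 libraries, a difference of 6.75 in log2(sum + 1) (two-sided exact permutation test, p = 0.1, the smallest that 3 against 3 can give). Sprr1a made up 94.6%, 96.4% and 98.8% of that sum in the CCl4 libraries.

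**Figure D1:**
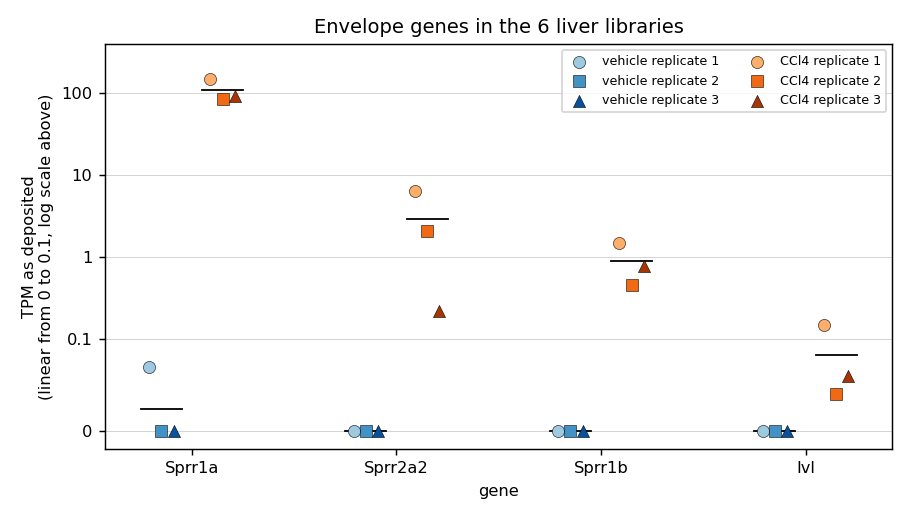
TPM as deposited (vertical axis, linear from 0 to 0.1 and logarithmic above) of the 4 envelope genes whose CCl4 libraries all lay above all vehicle libraries in liver. Points are libraries and bars are group means; Sprr1a sits between 84.2 and 151 TPM with CCl4, while Sprr1b, Sprr2a2 and Ivl stay below 6.5 TPM and every vehicle point of those 3 genes is at 0.

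Most keratinocyte genes that accompany Sprr1a in epidermis were at or near 0 in the same libraries. Krt1, Krtdap, Dsg1a, Dsc1 and Calml3, genes of the upper epidermis, were listed at 0 in all 6 liver libraries. Krt14, a keratin of basal keratinocytes, was at 0, 0 and 0 TPM with vehicle and 0.19, 0.14 and 0.05 TPM with CCl4. The summed TPM of 8 suprabasal keratinocyte markers was 1.68, 0.71 and 1.75 with vehicle and 1.07, 2.09 and 1.66 with CCl4, so these groups overlapped. For 8 basal keratinocyte markers the sums were 1.35, 0.9 and 1.11 with vehicle and 3.53, 6.59 and 4.09 with CCl4, most of it from Itga6, an integrin that other cells also carry. Markers of other cell types also differed between the vehicle and CCl4 libraries. Among the CCl4 libraries they did not follow Sprr1a, which was highest in replicate 1 and lowest in replicate 2. The macrophage, neutrophil, cholangiocyte and fibroblast sums given next were all highest in replicate 2. The sum over 9 macrophage and monocyte markers was 23.1, 49.3 and 35.0 with vehicle and 346, 530.2 and 149 with CCl4, and all 8 that could be tested were called higher. The sum over 5 neutrophil markers was 0.86, 0.12 and 0.57 with vehicle and 108, 352 and 33.0 with CCl4, without overlap. The sum over 6 cholangiocyte markers was 4.29, 6.61 and 4.42 with vehicle and 27.0, 58.5 and 30.1 with CCl4. Most of it came from Spp1, at 20.9, 51.4 and 24.6 TPM with CCl4. Spp1 and Sox9, the genes of this list that could be tested, were both called higher. The sum over 6 fibroblast markers was 6.2, 8.85 and 7 with vehicle and 139, 165 and 71.5 with CCl4, also without overlap. All 5 hepatocyte markers were called lower, from sums of 63811, 71279 and 68949.6 to 12425, 14564 and 29533. In each of these bulk libraries fewer cells of a type and less RNA per cell cannot be told apart, and the part of these cell types in the Sprr1a result was not tested.

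The liver genes whose profile was most like that of Sprr1a were found by the root mean square difference of mean-centred log2(TPM + 1) over the 6 liver libraries, among 5023 genes with a mean of at least 5 TPM. Cyp1a1, a cytochrome P450 enzyme, was closest at 0.98, with 0.67, 0.39 and 0.73 TPM in vehicle and 53.8, 32.0 and 43.3 TPM in CCl4 libraries. Then came S100a9 (1.11), Anxa2 (1.23), Mmp12 (1.32), S100a8 (1.33), S100g (1.41), Lyz2 (1.48) and Nupr1 (1.53). S100a8 and S100a9 encode calcium-binding proteins abundant in neutrophils, Lyz2 and Mmp12 encode a lysozyme and a protease of myeloid cells, and Anxa2 encodes a membrane-binding annexin. All 8 were higher in each CCl4 library than in each vehicle library, which follows from how they were chosen. Unlike Sprr1a, S100a9 was highest in CCl4 replicate 2, at 60.8, 194 and 20.1 TPM over the 3 CCl4 replicates.

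Genes that work with the envelope proteins were counted from 6 lists chosen by function, given as the share that could be tested in liver and the median change, beside the -0.59 of all genes. Of 17 other envelope and junction proteins, 6 were tested, 2 rose and 2 fell, with a median of -0.01. S100a11, a calcium-binding protein found cross-linked in the envelope, rose (3.79 ± 0.31, adjusted p = 1.34e-05), from 2.31, 3.65 and 1.84 to 35.7, 72.8 and 41.4 TPM. Anxa1, an annexin that is also an envelope component, rose (2.70 ± 0.40, adjusted p = 0.000344). Anxa1, Klf4 and Osmr were under 1 TPM in every vehicle library and passed the filter only through their CCl4 libraries. Dsp, the desmosome protein desmoplakin, fell on the deposited values (-0.98 ± 0.27, adjusted p = 0.00899), and its change of -0.35 to -0.59 under the other scalings was not called. The fall of Jup, plakoglobin, by 0.58 (adjusted p = 0.0308) turned to 0.08 and 0.09 under median-ratio scaling and rescaling without mitochondrially encoded genes.

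Enzymes of cross-linking and proteolysis gave 4 tested genes of 15, none higher and 2 lower, with a median of -0.64. Blmh, a hydrolase that degrades filaggrin, fell (-1.27 ± 0.25, adjusted p = 0.0015), as did the protease Ctsl (-0.85 ± 0.30, adjusted p = 0.0269) on the deposited values. Ctsl was at -0.04 under median-ratio scaling and 0.54 after quantile normalization, so its direction depended on the scaling. Prss8, a membrane protease, was at -0.44 ± 0.19, adjusted p = 0.0676. Of 10 barrier lipid genes 3 were tested and only Sdr9c7, a dehydrogenase acting on barrier lipids, was called, lower (-2.10 ± 0.37, adjusted p = 0.000904). Pnpla1, a lipase-family enzyme of barrier lipids, was at -0.28 and was not called. Of 17 regulators of differentiation 9 were tested, 2 rose and 5 fell, with a median of -0.73. Klf4 (1.73 ± 0.23, adjusted p = 0.000184) and Maf (1.89 ± 0.30, adjusted p = 0.000519) rose, both transcription factors with roles in epidermal differentiation.

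Of 10 AP-1 family genes, whose motif marks the Sprr1a stretch printed above, 8 were tested, 1 rose and none fell, with a median of -0.06. Fosl2, a Fos-related subunit, rose (1.56 ± 0.22, adjusted p = 0.000315), from 1.78, 0.55 and 0.98 TPM with vehicle to 5.26, 4.76 and 5.03 TPM with CCl4, with no overlap. Maff (0.62 ± 0.40, adjusted p = 0.2) and Fosb (-1.06 ± 0.71, adjusted p = 0.206) were not called. Of 12 genes of gp130 cytokine signalling, the receptor family of interleukin 6 and oncostatin M, 7 were tested, 3 rose and 2 fell, with a median of -0.15. Osmr, the oncostatin M receptor, rose (1.46 ± 0.18, adjusted p = 0.000137), as did Il6st, gp130 itself (1.37 ± 0.27, adjusted p = 0.00141). Il6ra (-1.70 ± 0.24, adjusted p = 0.000285) and Lifr (-1.57 ± 0.30, adjusted p = 0.00127), receptor chains for interleukin 6 and leukemia inhibitory factor, fell. Apart from Jup and Ctsl, the list genes named here as risen or fallen kept their direction under all 3 other scalings. Dsp lost its call in all 3 and Blmh in 1 (limma adjusted p = 0.0514 without mitochondrially encoded genes).

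In skin the levels of the envelope genes differed widely between single libraries of a group. Their summed TPM was 514, 357 and 6146 in vehicle replicates 1 to 3 and 2061, 1194 and 111391 in CCl4 replicates 1 to 3. These are 0.0514%, 0.0357% and 0.615% of all TPM with vehicle and 0.206%, 0.119% and 11.1% with CCl4. CCl4 replicate 3 thus stood apart from all others, vehicle replicate 3 was the next highest, and the groups overlapped. The group means of log2(sum + 1) were 10.03 ± 2.23 and 12.67 ± 3.57 (SD, n = 3 each), a difference of 2.64 (two-sided exact permutation test, p = 0.4). Without CCl4 replicate 3 the difference was 0.59 (p = 0.8 by the same exact test). Without both replicates numbered 3, a setting chosen after seeing the data, it was 1.87 and the groups did not overlap. The exact permutation test then gave p = 0.333, the smallest that so few libraries can give.

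No member was called in skin: 32 of the 45 passed the expression filter, each had a limma adjusted p of 0.9999, and 0 of the 13767 genes tested were called, so percent called was 0 in either direction. At an unadjusted p under 0.05, limma gave 288 genes (2.09%), of which 113 (0.821%) were higher with CCl4, and 12 members, all higher. Cdsn, Cst6 and Sprr2d passed the filter on their vehicle libraries alone, and the other 9 of these 12 passed only with the help of their CCl4 libraries. None was called under any other pseudocount, filter, scaling, block or left-out library that was run. The values in each library are therefore given as a description.

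**Figure D2:**
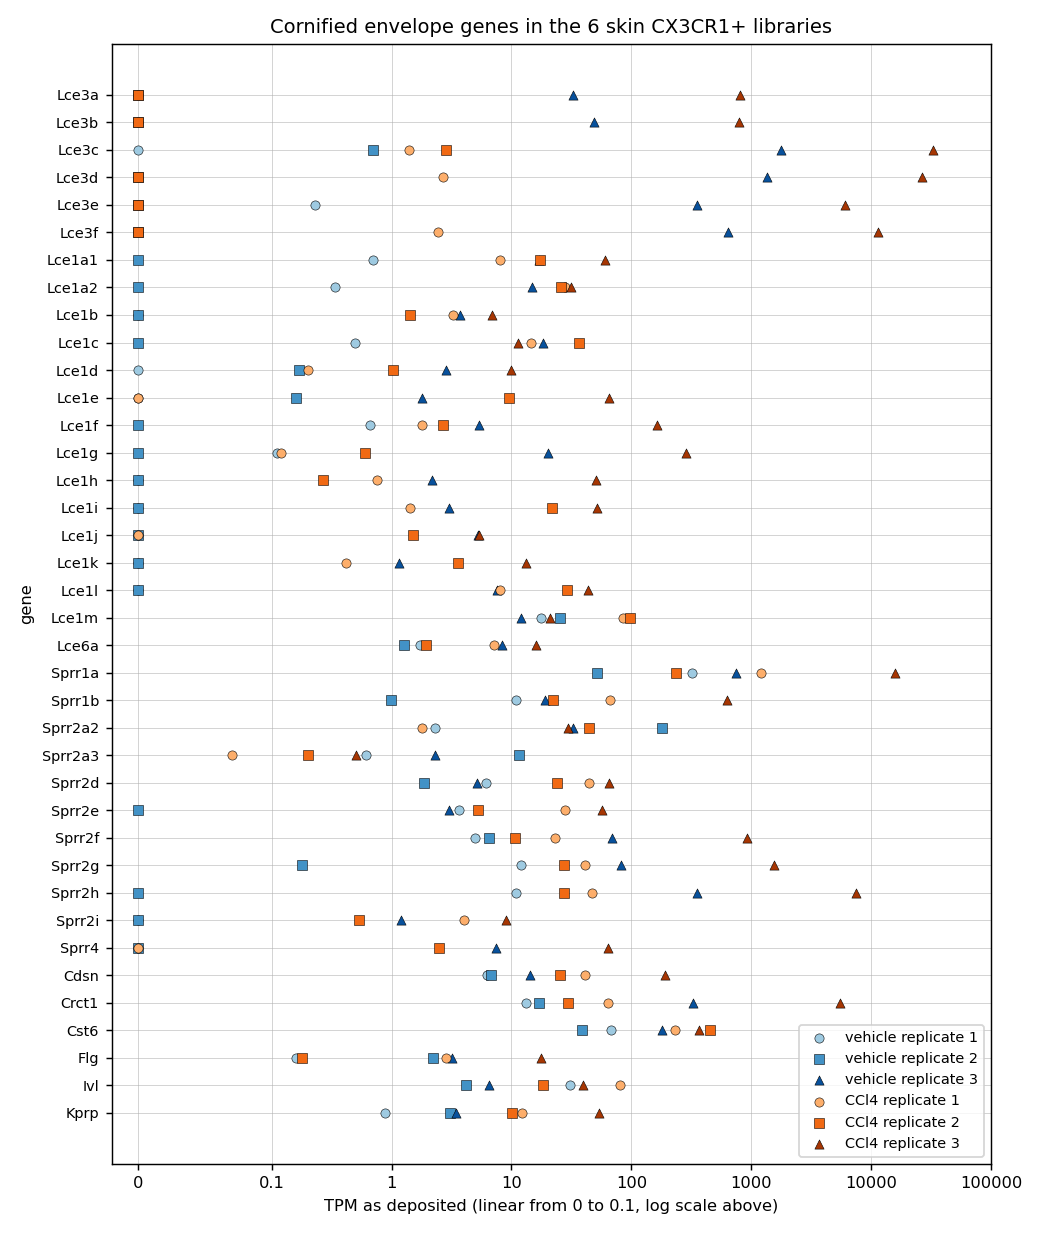
TPM as deposited (horizontal axis, linear from 0 to 0.1 and logarithmic above) of the 38 members that reached 5 TPM in at least 1 library. Each point is 1 of the 6 skin libraries, and points at 0 hide one another; the dark triangles of CCl4 replicate 3 lie farthest right for most genes, and those of vehicle replicate 3 lie next for all 6 Lce3 genes.

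The Lce3 genes encode late envelope proteins that are known to appear in injured or inflamed epidermis, and here they were carried almost wholly by the libraries numbered replicate 3. Lce3c was at 0, 0.7 and 1755 TPM in vehicle replicates 1 to 3 and at 1.4, 2.87 and 32418 TPM in CCl4 replicates 1 to 3. Lce3d was at 0, 0 and 1351 TPM with vehicle and 2.66, 0 and 26451.5 TPM with CCl4. Lce3f was at 0, 0 and 633 TPM (vehicle) and 2.42, 0 and 11300.2 TPM (CCl4). In CCl4 replicate 3 these were the genes ranked 2, 4 and 8 of the whole library, and in 4 of the 6 libraries no Lce3 gene reached 3 TPM. Lce3e was at 0.23, 0 and 349.5 TPM with vehicle and 0, 0 and 6056 TPM with CCl4. Lce3a was at 0, 0 and 32.8 TPM (vehicle) and 0, 0 and 812 TPM (CCl4), and Lce3b at 0, 0 and 49.2 TPM (vehicle) and 0, 0 and 794 TPM (CCl4). Lce3a and Lce3b were thus listed at 0 in every library but the replicates 3. The 6 genes made up 67.8% of member TPM in vehicle replicate 3 and 69.9% in CCl4 replicate 3, and at most 0.314% in the other 4 libraries. Crct1, the neighbour of Lce3f, was at 13.2, 17.0 and 329 TPM with vehicle and 63.4, 29.6 and 5512 TPM with CCl4, so it had the same high libraries but was not at 0 elsewhere. Some sequence is shared: of the 100-base runs of their GENCODE M21 transcripts, 24.1% in Lce3c, 28.3% in Lce3d, 36.4% in Lce3e and 43.0% in Lce3f also occur in another gene, so reads can be split among these 4, while Lce3a had none and Lce3b 1.08%.

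The Sprr1 genes were present in every skin library. Sprr1a was at 320.2, 51.9 and 739.9 TPM in vehicle replicates 1 to 3 and at 1208, 237 and 15703 TPM in CCl4 replicates 1 to 3. The groups overlapped, and the change was 2.83 ± 1.44 (limma, adjusted p = 0.9999). Sprr1a was the largest single member in both libraries numbered replicate 1, where it held 62.3% (vehicle) and 58.6% (CCl4) of member TPM. In the other 4 libraries it held 12% to 19.8%. Sprr1b was at 10.9, 0.99 and 19.0 TPM with vehicle and 66.3, 22.1 and 630.1 TPM with CCl4. Here every CCl4 library lay above every vehicle library, by a narrow margin between vehicle replicate 3 and CCl4 replicate 2 (3.67 ± 1.26, adjusted p = 0.9999). The Sprr1a change in skin minus that in liver was -3.87 in 1 limma model over all 12 libraries (adjusted p = 0.228 over 9255 genes, of which 0.216% were called). It was -6.95 with a pseudocount of 0.1 (adjusted p = 0.062) and -1.66 with one of 5 (adjusted p = 0.658). It was -4.66 without both skin replicates numbered 3, a setting chosen after seeing the data (limma, adjusted p = 0.0364). That model gives both tissues 1 estimate of spread, though the standard errors of the separate fits were 0.26 in liver and 1.44 in skin. Liver and skin also differ in assay, mouse strain and material, so an effect of tissue cannot be told apart from these.

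Among the Sprr2 genes, which encode further bridging proteins, 3 patterns were seen. Sprr2d and Sprr2e were higher in each CCl4 library than in each vehicle library. Sprr2d was at 6.12, 1.85 and 5.11 TPM with vehicle and 43.9, 24.1 and 64.8 TPM with CCl4, a change of 3.07 ± 0.69 with the lowest unadjusted p of any member (0.00152). Sprr2e was at 3.65, 0 and 3.04 TPM (vehicle) and 28.1, 5.24 and 57.2 TPM (CCl4) (3.04 ± 0.98). Vehicle replicate 3 was not high for either of them. Sprr2h, Sprr2g and Sprr2f instead followed the replicates 3. Sprr2h was at 11, 0 and 355 TPM with vehicle and 46.8, 27.3 and 7519 TPM with CCl4. Sprr2g was at 12.1, 0.18 and 81.5 TPM (vehicle) and 40.6, 27.3 and 1551 TPM (CCl4), and Sprr2f at 4.99, 6.52 and 69.1 TPM (vehicle) and 23.1, 10.8 and 917 TPM (CCl4). In all 3, vehicle replicate 3 exceeded CCl4 replicates 1 and 2. Sprr2i was lower, at 0, 0 and 1.21 TPM (vehicle) and 4.03, 0.54 and 9 TPM (CCl4).

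Sprr2a2 and Sprr2a3 went with neither pattern and were highest in vehicle replicate 2. Sprr2a2 was at 2.3, 179.8 and 32.6 TPM with vehicle and 1.81, 44.6 and 29.5 TPM with CCl4 (-0.79 ± 1.48). Sprr2a3 was at 0.61, 11.5 and 2.31 TPM (vehicle) and 0.07, 0.2 and 0.51 TPM (CCl4), and it was the only member whose CCl4 libraries all lay below all vehicle libraries, as 1.2% of all genes did. The values of Sprr2a1, Sprr2a2 and Sprr2a3 are uncertain, since 92.5%, 92.8% and 36.2% of their 100-base runs occur in another gene, mostly one another. Sprr2a1 was at 0.3, 2.92 and 0.18 TPM (vehicle) and 0, 0.43 and 1.09 TPM (CCl4). Sprr2b, Sprr2j-ps and Sprr2k lay between 0 and 2.79 TPM, and the last pair were higher in every CCl4 library than in every vehicle library at these low levels. Sprr4 was at 0, 0 and 7.45 TPM with vehicle and 0, 2.5 and 64.1 TPM with CCl4.

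The Lce1 genes, late envelope proteins of normal epidermis, summed to 20.1, 25.6 and 115 TPM in vehicle and 151, 248 and 815 TPM in CCl4 libraries, so as a family all CCl4 libraries lay above all vehicle libraries. Lce1m was the most abundant in 4 libraries, at 17.8, 25.3 and 12.03 TPM with vehicle and 84.4, 96.6 and 21.1 TPM with CCl4. It was higher in CCl4 replicates 1 and 2 than elsewhere and overlapped with vehicle in replicate 3 (1.61 ± 0.73). Lce1a2 was at 0.34, 0 and 14.7 TPM with vehicle and 28.0, 26 and 31.3 TPM with CCl4, a similar level in all 3 CCl4 libraries (3.41 ± 1.02). Lce1l was at 0, 0 and 7.57 TPM (vehicle) and 7.97, 29.1 and 43.5 TPM (CCl4) (3.48 ± 1.01). These last 2 were the Lce1 genes without overlap between groups, and both had an adjusted p of 0.9999. Lce1a1 was at 0.7, 0 and 17.0 TPM with vehicle and 8.05, 17.2 and 59.7 TPM with CCl4. Lce1c was at 0.5, 0 and 18.5 TPM (vehicle) and 14.5, 36.7 and 11.4 TPM (CCl4), with its highest value in CCl4 replicate 2. Lce1i was at 0, 0 and 3 TPM (vehicle) and 1.42, 21.8 and 51.2 TPM (CCl4).

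For 4 further Lce1 genes CCl4 replicate 3 was far above every other skin library. Lce1g was at 0.11, 0 and 20.0 TPM with vehicle and 0.12, 0.6 and 283 TPM with CCl4. Lce1f was at 0.66, 0 and 5.32 TPM (vehicle) and 1.78, 2.7 and 163 TPM (CCl4). Lce1e was at 0, 0.16 and 1.8 TPM (vehicle) and 0, 9.52 and 65.0 TPM (CCl4), and Lce1h at 0, 0 and 2.19 TPM (vehicle) and 0.75, 0.27 and 51.0 TPM (CCl4). In Lce1f, Lce1g and Lce1h, vehicle replicate 3 was the next highest library. The remaining Lce1 genes were low. Lce1b was at 0, 0 and 3.74 TPM with vehicle and 3.26, 1.42 and 6.93 TPM with CCl4, and Lce1d at 0, 0.17 and 2.83 TPM (vehicle) and 0.2, 1.03 and 9.99 TPM (CCl4). Lce1j was at 0, 0 and 5.23 TPM (vehicle) and 0, 1.51 and 5.38 TPM (CCl4), and Lce1k at 0, 0 and 1.15 TPM (vehicle) and 0.42, 3.6 and 13.3 TPM (CCl4). All 4 were at or under 0.17 TPM in vehicle replicates 1 and 2. Lce6a, a more distant late envelope gene next to the Lce1 genes, was at 1.74, 1.27 and 8.26 TPM (vehicle) and 7.11, 1.93 and 15.9 TPM (CCl4).

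**Figure D3:**
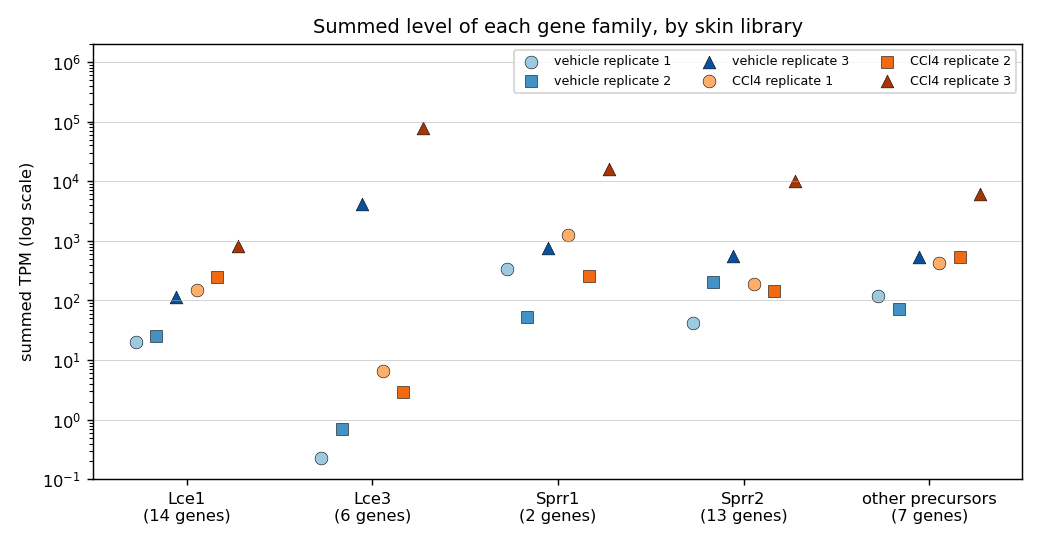
Summed TPM (vertical axis, log scale) of the Lce1, Lce3, Sprr1 and Sprr2 genes and of the 7 members named singly, 1 point per skin library. The Lce3 sum runs from 0.23 TPM in vehicle replicate 1 to 77831 TPM in CCl4 replicate 3, with vehicle replicate 3 at 4169 TPM, whereas the Lce1 sum runs from 20.1 to 815 TPM.

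Of the members outside both families, Cdsn, Cst6 and Kprp were higher in each CCl4 library than in each vehicle library. Cdsn, the adhesive protein of cornified cell junctions, was at 6.27, 6.76 and 14.2 TPM with vehicle and 40.9, 25.2 and 189.9 TPM with CCl4 (2.64 ± 0.83). Cst6, the protease inhibitor, was at 67.7, 38.6 and 181 TPM (vehicle) and 231, 450.3 and 365 TPM (CCl4) (2.09 ± 0.67), and unlike most members it was highest in CCl4 replicate 2. Kprp, keratinocyte proline-rich protein, was at 0.89, 3.06 and 3.48 TPM (vehicle) and 12.3, 10.1 and 53.8 TPM (CCl4) (2.63 ± 0.81). All 3 had a limma adjusted p of 0.9999. Ivl, the early scaffold, was at 30.9, 4.21 and 6.44 TPM with vehicle and 80.1, 18.4 and 39.6 TPM with CCl4, with its highest value in CCl4 replicate 1. Flg was low throughout, at 0.16, 2.23 and 3.19 TPM (vehicle) and 2.84, 0.18 and 17.7 TPM (CCl4), and Flg2 never exceeded 1.6 TPM.

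Without overlap, 10 of 45 members were higher with CCl4 (Lce1a2, Lce1l, Cdsn, Cst6, Kprp, Sprr1b, Sprr2d, Sprr2e, Sprr2j-ps and Sprr2k) and 1 was lower, against 1.01% and 1.2% of all 57180 genes. Without CCl4 replicate 3 the count was 11 of 45 (2.54% of all genes). Without both replicates numbered 3, a setting chosen after seeing the data, it was 27 (4.31%). With fewer libraries a lack of overlap comes more easily, as the shares over all genes show. Leaving out both replicates numbered 1 gave 15 (4.6%). In each of these settings 1 member was lower. Of the 57180 genes, 36799 were above 0 in a skin library, as were 43 of the 45 members. Genes at 0 throughout always overlap, so these shares are lower than they would be among genes seen in skin. CCl4 replicate 3 was the highest of the 6 libraries for 32 of the 43 members above 0, against 13.9% of all genes above 0 in skin. For 19 of the 43 it was highest with vehicle replicate 3 next, against 3.55% of those genes.

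CCl4 replicate 3 and vehicle replicate 3 share a number in their titles but not in their library names. The ratio of the former to the latter was 13.3 or more in every abundant member but Cst6. Of the members, 16 had at least 100 TPM in CCl4 replicate 3, and their TPM there was a median of 18.2 times that in vehicle replicate 3 (range 2.02 to 33.2). Over the 13 Lce and Sprr genes among them the median was 19.0 (13.3 to 33.2). Lce3c was at 18.5 times, Lce3d at 19.6 times, Sprr1a and Sprr2h each at 21.2 times and Crct1 at 16.8 times, while Cst6 was at 2.02 times. Over all 1464 genes with at least 100 TPM in CCl4 replicate 3 and a value above 0 in vehicle replicate 3, the median ratio was 1.61, with the 5th to 95th percentiles at 0.499 to 13.4. The abundant members thus lay near or beyond the upper end of that range, apart from Cst6. Some less abundant members did not: Sprr2a2 was at 0.905 times, Lce1c at 0.619 times and Sprr2a3 at 0.221 times. Members were not alone there: 22 genes had at least 100 TPM in CCl4 replicate 3 and under 5 TPM in each of the 4 skin libraries that are not replicates 3. Of these, 8 were members, with a median ratio of 18.2 (range 14.1 to 30.6). The other 14 were not members and had a median of 22.1, quartiles of 18.4 and 27.3 and a range of 1.79 to 78.4. All 22 were above 0 in vehicle replicate 3. Among the 14 were the kallikrein proteases Klk9 (22.4) and Klk10 (27.3), named after their values were seen. So were the protease Mmp10 (57.4) and the cytokine gene Il1f8 (78.4), which had the highest ratios. Whether RNA, cDNA or reads of CCl4 replicate 3 were carried over into vehicle replicate 3 was not tested, and every value of vehicle replicate 3 given here stands with that limit.

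**Figure D4:**
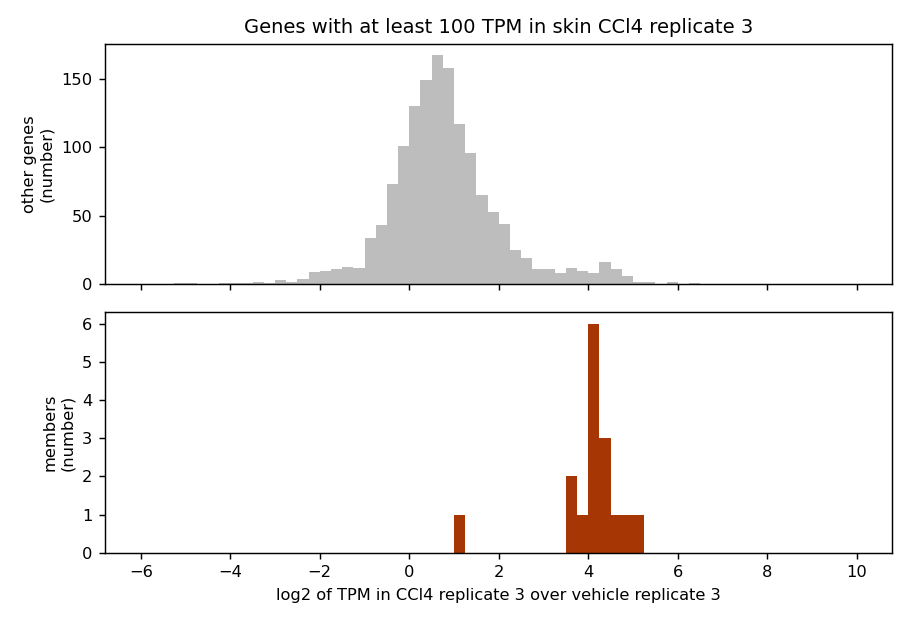
Number of genes (vertical axes) by log2 ratio of TPM in CCl4 replicate 3 over vehicle replicate 3 (horizontal axis), for genes with at least 100 TPM in CCl4 replicate 3. The upper panel holds the other genes, whose bulk lies near the median ratio of 1.61, and the lower panel the 16 members, of which Cst6 at a ratio of 2.02 is the lowest.

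Marker genes differed between the same libraries. Cx3cr1 itself was at 3.91, 0.27 and 0.91 TPM with vehicle and 5.28, 0 and 0.28 TPM with CCl4, so the gene that defines the labelled cells was at or under 5.28 TPM in all 6. The summed TPM of 9 macrophage and monocyte markers was 8815, 18847 and 25278 with vehicle and 6864, 9146 and 308 with CCl4. That of 6 Langerhans and dendritic cell markers was 47364, 45271 and 42503 with vehicle and 29210.5, 13072 and 180.3 with CCl4. CCl4 replicate 3 was the lowest library for both sums. Outside that library Cd74 and H2-Ab1 made up nearly all of the latter sum. Cd207, of the same list, was at 289, 114 and 13.6 TPM with vehicle and 74.8, 38.2 and 1.08 TPM with CCl4. Epcam, also listed, went the other way and was highest in CCl4 replicate 3, at 113 of the 180.3 TPM. Suprabasal keratinocyte markers summed to 1837, 1639 and 12631 TPM with vehicle and 9186, 9629 and 21445 TPM with CCl4, with 8 of 8 markers at 1 TPM or more in 4 libraries, 6 in vehicle replicate 3 and 5 in CCl4 replicate 3. Basal keratinocyte markers summed to 1196, 2832 and 990.1 TPM (vehicle) and 2190.3, 3036 and 647 TPM (CCl4), and 7 or 8 of 8 reached 1 TPM in each library. None of these keratinocyte markers was at 0 in a skin library.

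The keratinocyte markers did not move as a block. Krtdap, a keratinocyte differentiation protein, was at 1329, 1048 and 11735 TPM with vehicle and 7599, 8428 and 19821 TPM with CCl4. Krt10, a keratin of the suprabasal layers, was at 102, 205 and 352 TPM (vehicle) and 502, 475 and 48.3 TPM (CCl4), and its partner Krt1 at 23.3, 86.8 and 26.1 TPM (vehicle) and 69.6, 62.0 and 3.48 TPM (CCl4). In CCl4 replicate 3, then, Krtdap was at its highest and Krt1 and Krt10 at their lowest. Krt14 was at 709, 1128 and 348 TPM with vehicle and 1133, 1078 and 264 TPM with CCl4. Dermal fibroblast markers summed to 2168, 6881 and 1619 TPM (vehicle) and 454, 4376.5 and 359 TPM (CCl4). T cell markers summed to 2000.4, 557 and 4047 TPM (vehicle) and 2207, 663 and 1461 TPM (CCl4). Neutrophil markers summed to 42.2, 25.5 and 91.4 TPM (vehicle) and 21.1, 48.4 and 581 TPM (CCl4). In CCl4 replicate 3 nearly all of the neutrophil sum came from S100a8 (291 TPM) and S100a9 (288 TPM). The rest of that list was low there, with Retnlg at 0.08, Cxcr2 at 1.08 and Csf3r at 0.03 TPM, the lowest Csf3r value in skin. Mast cell markers summed to 30.6, 211 and 359 TPM (vehicle) and 12.1, 252 and 0.25 TPM (CCl4) and sebocyte markers to 363, 17.6 and 7.79 TPM (vehicle) and 309, 58.0 and 3.19 TPM (CCl4). Hair follicle markers summed to at most 1.72 TPM and melanocyte markers to at most 18.7 TPM in any skin library. The part of keratinocytes, or of any other cell type, in the skin values of the envelope genes was not tested.

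**Figure D5:**
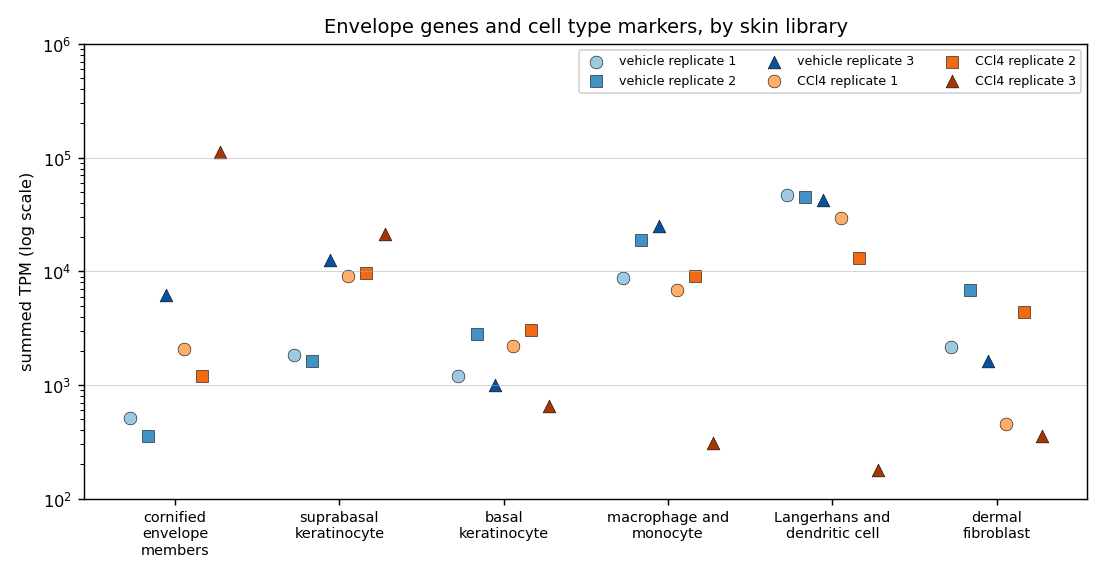
Summed TPM (vertical axis, log scale) of the 45 members and of 5 marker lists, 1 point per skin library. In CCl4 replicate 3 the members reach 111391 TPM while the Langerhans and dendritic cell markers stand at 180.3 TPM, against 13072 to 47364 TPM in the other 5 libraries.

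The skin genes whose profile was most like the summed members, by the root mean square difference used for Sprr1a and among 8466 genes outside the members, were led by Klk7 (0.19). Klk7, a protease that sheds cornified cells, was at 13.1, 6.8 and 115 TPM with vehicle and 46.1, 23.1 and 2911 TPM with CCl4. Trex2 (0.34), an exonuclease of keratinocytes, was at 2.6, 3.81 and 45.9 TPM (vehicle) and 21.4, 9.17 and 804 TPM (CCl4). Cnfn (0.61), the envelope component cornifelin, was at 9.73, 9.24 and 260.5 TPM (vehicle) and 96.0, 94.9 and 3911 TPM (CCl4). Il1f9 (0.64), Klk9 (0.67), Asprv1 (0.67), Cpa4 (0.67) and Klk6 (0.68) followed. Il1f9 encodes a cytokine of the interleukin 1 family, Asprv1 a protease that processes filaggrin, and Cpa4 a carboxypeptidase. All 8 were highest in CCl4 replicate 3, which follows from how they were chosen.

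In the 6 lists by function, 13 of 17 other envelope proteins, 12 of 15 cross-linking and proteolysis genes, 9 of 10 barrier lipid genes and all 17 regulators, 10 AP-1 genes and 12 gp130 genes could be tested in skin, and none was called by limma. Their median changes were 0.27, 1.66, 0.89, 0.45, -0.10 and -0.32, beside -0.05 for all genes. Those with the lowest p in each list follow with the change and its standard error. Among envelope proteins these were Cnfn (3.44 ± 1.63), the main envelope protein loricrin, Lor (0.87 ± 0.70), and Pkp1 (0.64 ± 0.78). Lor was at 8.89, 20.3 and 31.5 TPM with vehicle and 58.6, 27.0 and 24.0 TPM with CCl4, so it was not raised in CCl4 replicate 3 as the Lce3 genes were. Among enzymes they were the transglutaminase Tgm1 (1.71 ± 0.73), the inhibitor Spink5 (1.73 ± 0.81) and the protease Klk5 (2.16 ± 1.06). Tgm1, which cross-links the envelope, was at 1.04, 3.87 and 0.03 TPM with vehicle and 5.45, 3.54 and 11.2 TPM with CCl4, with overlap. For barrier lipids they were the lipoxygenases Aloxe3 (1.38 ± 0.64) and Alox12b (1.47 ± 0.83), and Sdr9c7 (1.25 ± 0.81). For regulators they were Maf (-1.21 ± 0.69), Cebpb (0.84 ± 0.50) and Ovol1 (1.31 ± 0.83).

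Fosl1, a Fos-related AP-1 subunit, had the lowest p of its list in skin (2.04 ± 0.82). It was at 64.9, 112 and 11.8 TPM with vehicle and 134, 194 and 251 TPM with CCl4, so each CCl4 library lay above each vehicle library, and vehicle replicate 3 was the lowest of all. Atf3 (-0.92 ± 0.83) and Batf (-0.81 ± 0.77) came next. Fosl2, which rose in liver, was at 90.5, 40.9 and 6.38 TPM with vehicle and 117, 23.9 and 6.04 TPM with CCl4 in skin, with overlap. Of the gp130 genes the lowest p belonged to the cytokine Osm (-1.94 ± 1.08) and to Il6ra (-1.12 ± 0.68) and Il6st (-1.10 ± 1.17). Osm was at 10.5, 39.3 and 28.7 TPM with vehicle and 17.3, 11.2 and 0.09 TPM with CCl4, lowest in CCl4 replicate 3.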

How the data were processed

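Bulk RNA-seq of liver and smart-seq of skin CX3CR1+ cells were analysed as 1 table of TPM that the authors deposited for 57180 genes and 12 libraries, 3 per group. The submitters' processing notes name fastp, HISAT2, StringTie, RSEM and GRCm39, with neither versions nor roles. Depth is unknown, so no counting interval is given, and a gene listed at 0 may be one whose estimate failed. Every column matched a sample label, and replicate numbers are those of the titles. Symbols matched 51884 gene IDs.

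Levels were tested as log2(TPM + 1) with limma 3.58.1 in R 4.3.3 (lmFit, eBayes with trend, two-sided, each tissue alone), over genes at 1 TPM or more in at least 3 of 6 libraries, with Benjamini-Hochberg adjustment over all genes; the code was tested on simulated data. A log2 change understates that of low genes. Summed levels were tested by exact permutation, two-sided. The effects in skin and liver were compared in 1 limma model. Tables were handled in Python 3.11.15. Gene order and promoters came from RefSeq (GRCm38.p6), another build than the table's, and shared runs of 100 bases from GENCODE M21 transcripts. Alternatives changed the pseudocount, filter, scaling and libraries, or added a replicate block.

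The members and lists were chosen with earlier results of these data known. Named with values are Sprr1a, each member with at least 5 TPM in a library, any called member, the 8 genes most like each pattern, and the 3 genes of each functional list with the lowest p, of which 2 in liver are not reported here.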

Additional observations from a re-analysis of the deposited data

How the results depend on the processing

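Sprr1a in liver kept its direction and call under every alternative run. Its change ran from 4.46 with a pseudocount of 5 to 9.79 with one of 0.1, was 6.70 with a replicate block, and its largest adjusted p was 0.00409, in 1 fit over all 12 libraries. The members called higher in liver went from 1 to 2 without the expression filter and after rescaling without mitochondrially encoded genes, where Sprr1b was added (limma adjusted p = 0.022 and 0.00665), and ranged from 1 to 2 over fits leaving out 1 liver library; without CCl4 replicate 3 or any 1 vehicle replicate the addition was Sprr2a2. Such fits test more genes, since the filter then asks for fewer libraries. No member was called in skin under any alternative run. The skin minus liver change of Sprr1a was called with the replicate block (-3.87, adjusted p = 0.0278) and without both skin replicates numbered 3 (-4.66, adjusted p = 0.0364, chosen after seeing the data); a pseudocount of 0.1 gave -6.95 and one of 5 gave -1.66, and the change ranged from -5.49 to -2.47 when 1 library was left out, with no call in these, and the cause was not tested. Summed members in skin differed by 0.59 (without CCl4 replicate 3) to 3.92 (without vehicle replicate 3) when 1 library was left out and by 2.96 without both replicates numbered 1, with no exact permutation p under 0.05, which this design cannot reach.

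Libraries with the same number in their titles correlated in their deviations from the group means at 0.587, 0.092 and 0.35 in skin and -0.038, 0.08 and 0.068 in liver, so the numbers were not taken to pair samples. The replicate block left the count of called members at 1 in liver and 0 in skin. In skin, CCl4 replicate 2 correlated best with vehicle replicate 3 (0.158), not with its own number. By the library names skin CCl4 replicate 3 would instead match vehicle replicate 2 (-0.185) and CCl4 replicate 2 no vehicle library, so the block rests on the titles alone. TPM keeps no depth, so whether a listed 0 is absence of a transcript could not be judged.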
